A study of Mus musculus with 4 samples.

Results

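The E2F and RB family was followed here as 10 genes, E2f1 to E2f8, Rb1 and Rbl1. Their rows were found by symbol, and the rule for membership uses no measured value. Each of the 10 had its own row among the 47937 genes of the deposited table. The libraries were ribosomal RNA-depleted total RNA of mouse embryonic fibroblasts (MEF cells), which are cultured connective tissue cells. There were 2 untreated libraries, labelled wild-type, and 2 libraries of MEF cells exposed to 50 µM genistein, a plant isoflavone, for 24 h. The labels call MEF a cell line and give the treatment in place of a genotype for the exposed cells. They do not say whether the libraries of a group came from separate cultures, so p-values measure the spread between these libraries, which may be technical.

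E2F proteins are transcription factors that bind the promoters of genes for DNA replication and cell division. E2f1, E2f2 and E2f3 are the activators. E2f4 and E2f5 act mostly as repressors when bound by a pocket protein, while E2f6, E2f7 and E2f8 repress without one. The pocket proteins are Rb1 (the retinoblastoma protein), Rbl1 (p107) and Rbl2 (p130). They hold E2Fs in check until cyclin-dependent kinases phosphorylate them in G1, which frees the activators to start S phase.

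The libraries held 28591958 to 31464284 counts over genes and repeats. Values are normalised counts, in which each library was scaled to the same effective (TMM-adjusted) size, the mean of the 4. All 10 genes passed the filter on low counts. The fibroblast markers Col1a1, Col1a2, Col3a1, Vim, Pdgfra and Pdgfrb were present in every library, with normalised counts from 1592 for Pdgfrb to 81277 for Col1a1, whereas Thy1 was listed at 0 in each. The 7 fibroblast markers summed to 269149 and 272767 without genistein and to 221721 and 216993 with it. At an adjusted p under 0.05 (edgeR), 6 of 6 tested were lower. Of all tested genes and repeats, 72.2% were called at that threshold and 36.0% were lower. The median log2 fold change of the 6 was -0.28, beside -0.03 for all tested genes. The 11 markers of epithelial, endothelial, blood and pluripotent cells summed to 571 to 572 without genistein and to 404 to 410 with it. Epcam and Adgre1 were at 0 in each library. The epithelial marker Krt8 was the highest of the 11 without genistein, at 396 and 413, and held 125 and 117 with it. Krt18 held 48.9 and 44.5 without genistein and 8.44 and 5.06 with it. The blood marker Cd68 held 83.9 and 65.6, and 211 and 213. The part of these markers in the results was not tested. In bulk RNA, fewer cells of a type or cycle stage and less RNA per cell cannot be told apart. The study reported that this exposure moved most cells to the G2 and M phases of the cycle and left fewer in G1. The part of that shift in the results was not tested.

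Genistein shifted the family in both directions. Rb1 was 4.13-fold and E2f1 1.57-fold higher, while the other 8 genes, that is 7 of 8 E2Fs and Rbl1, were 1.17-fold to 1.96-fold lower. At an adjusted p under 0.05, 2 members were higher and 8 lower (quasi-likelihood test of edgeR, Benjamini-Hochberg adjusted over all 17358 tested genes and repeats). Under this rule 72.2% of all tested entries were called. The share of all entries that was higher with genistein was 36.2%, against 2 of the 10 members, and the share that was lower was 36.0%, against 8 of 10. A call alone is thus common in these data. The genistein libraries lay wholly above or below the untreated libraries for all 10 members, as they did for 85.4% of all tested entries. With the study's further thresholds, a log2 change beyond 1 either way and more than 100 normalised counts on average, 7.82% of entries were called and 3.91% were higher. Rb1 was the 1 member past them. The study set these thresholds on DESeq2 results, whereas here they were set on the edgeR fit. The median log2 fold change (log2FC, genistein over untreated) was -0.34 over the 10 members and -0.03 over all 16240 tested genes. The log2FC values of E2f3, E2f5, E2f6, E2f7 and Rbl1 lay within the middle 50% of all tested genes, from -0.43 to 0.44.

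**Figure D1:**
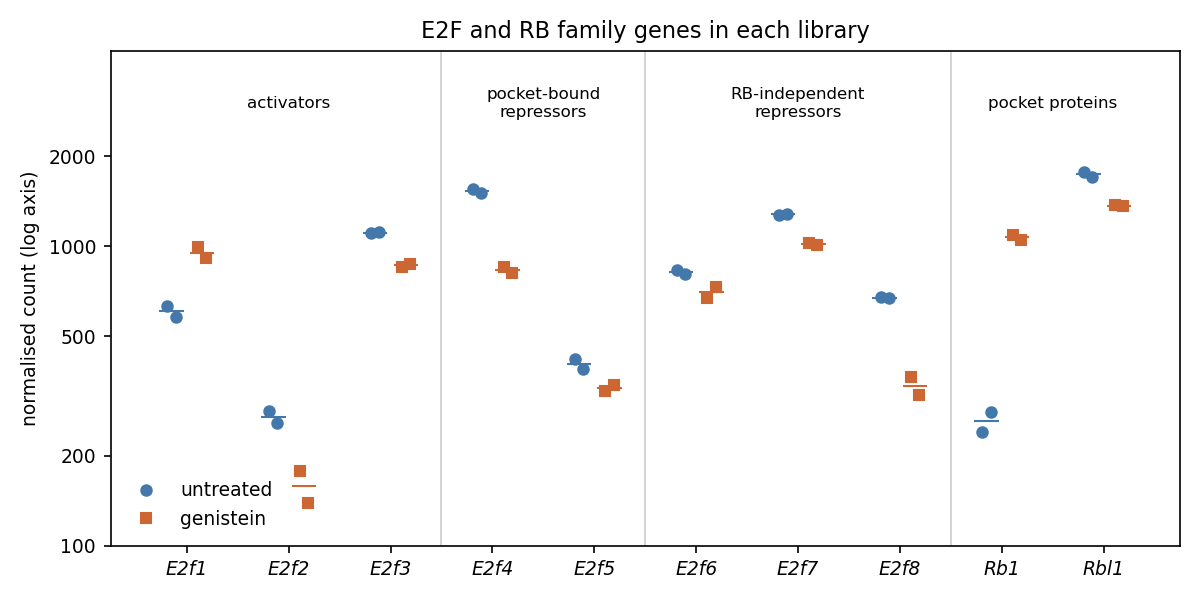
Normalised counts (log axis) of the 10 genes, with 1 point per library, a short line at the mean of each group of 2 libraries, and the genes ordered by role. Rb1 and E2f1 were the members with higher genistein points, and the groups did not overlap for any member.

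Several genes of the family are known E2F targets, so the short stretches that hold E2F letters are shown. RefSeq promoter windows on GRCm38.p6, 250 bases before to 50 bases from the start site, were matched for 7 of the 10 members (E2f1, E2f2, E2f3, E2f6, E2f7, E2f8 and Rbl1) in 9 windows. E2f4, E2f5 and Rb1 had no entry. The E2F letters searched on both strands were TTTCCCGC, TTTCGCGC, TTTGCCGC and TTTGGCGC. They occurred in 4 of these 7 genes (E2f2, E2f3, E2f7 and Rbl1), against 2.61% of all 27025 genes with a window. The matches are in capitals within up to 11 bases on either side, each on the strand of its gene and each 5′ to 3′. GCGGGAAA is TTTCCCGC read on the other strand.
E2f2, chr4:136172302-136172323, plus strand: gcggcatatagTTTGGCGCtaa
E2f3, chr13:29986056-29986085, minus strand: ttgaaaagccgGCGGGAAAtctgagtttcg
E2f7, chr10:110745230-110745259, plus strand: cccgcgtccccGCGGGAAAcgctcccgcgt
Rbl1, chr2:157204534-157204563, minus strand: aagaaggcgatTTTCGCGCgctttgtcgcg
These 4 genes were lower with genistein, as were E2f6 (-0.23) and E2f8 (-0.97), in whose windows these letters were not found. The match began 11 bases before the start site in E2f3, 18 before it in Rbl1, 198 before it in E2f7 and 39 after it in E2f2, whose start site here lies 120 bases upstream of that in GENCODE. The RefSeq start site of the E2f1 window lay 466 bases downstream of the gene's start in GENCODE, and the window did not reach that start.

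The letters TTTGAA, the cell cycle homology region (CHR) bound by the MuvB complex, were also searched on both strands. They occurred in 3 of the 7 genes (E2f2, E2f3 and E2f8), against 20.2% of all genes with a window. In E2f3 and E2f8 the match lay 23 and 20 bases before the start site, and the letters of E2f3 stand just ahead of its E2F match without overlapping it. TTCAAA is TTTGAA read on the other strand.
E2f3, chr13:29986070-29986097, minus strand: tgcaaatatggTTTGAAaagccggcggg
E2f8, chr7:48881600-48881627, minus strand: agcgggttaatTTCAAAtcgggggctgg
The E2f2 match lay in a window whose start site is 8388 bases downstream of the gene's start in GENCODE. These matches are letters in a window, and no binding was measured.

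Among the pocket proteins, Rb1 (chr14:73183673-73325822) had the largest change of the family. It is the tumour suppressor that binds the activator E2Fs. Its normalised counts were 240 and 281 in untreated cells (260.2 ± 28.9, SD, n = 2) and 1092 and 1053 after genistein (1073 ± 28.1, SD, n = 2). Both genistein libraries lay far above both untreated libraries. The log2FC was 2.05 ± 0.07 (SE, adjusted p = 5.4e-13, edgeR), which ranked 290 of 16240 tested genes from the highest.

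Rb1 shares 488 exon bases with Rcbtb2 and 408 with Lpar6, both on the opposite strand, and the counter's strand option was not given in the sources used here. Rcbtb2 had normalised counts of 1548 and 1563 without genistein and 1004 and 962 with it. Lpar6 had 484 and 513, and 427 and 449. Both were lower with genistein, the opposite of Rb1, with log2FC values of -0.66 and -0.19 (adjusted p = 4.1e-09 and 0.026, edgeR).

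Rbl1 (chr2:157145893-157204534), which encodes p107 and is itself a known E2F target, went down. Its normalised counts were 1775 and 1704 without genistein and 1370.0 and 1360.4 with it, a log2FC of -0.35 ± 0.04 (SE, adjusted p = 2.8e-06, edgeR). Rbl2, which encodes p130, the pocket protein that dominates in resting cells, is outside the 10 and was taken with the E2F partners. It had 1111 and 1139 normalised counts without genistein and 2024 and 1996 with it. Its log2FC was 0.84 ± 0.04 (SE, adjusted p = 5.9e-11, edgeR), a 1.79-fold rise.

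Per kilobase of merged exons, the RNA levels of the pocket protein genes changed order. Rb1 rose from 39.9 and 46.6 to 182 and 175 normalised counts per kilobase. Rbl1 went from 296 and 284 to 229 and 227, and Rbl2 from 147 and 151 to 268 and 264. Rbl1 was the highest of the 3 in both untreated libraries and Rbl2 in both genistein libraries. Rb1 made up 8.25% and 9.68% of their summed level before and 26.8% and 26.3% after genistein. The share of Rbl1 went from 61.3% and 59.0% to 33.7% and 34.1%. The sum of the 3 went from 483 and 482 to 678 and 666 per kilobase. Set against the summed level of E2f1 to E2f5, the E2Fs that pocket proteins bind, that sum had a ratio of 0.362 and 0.378 in untreated cells and 0.651 and 0.664 after genistein. These sums and shares are of RNA levels, not of protein, and are descriptions with no test.

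**Figure D2:**
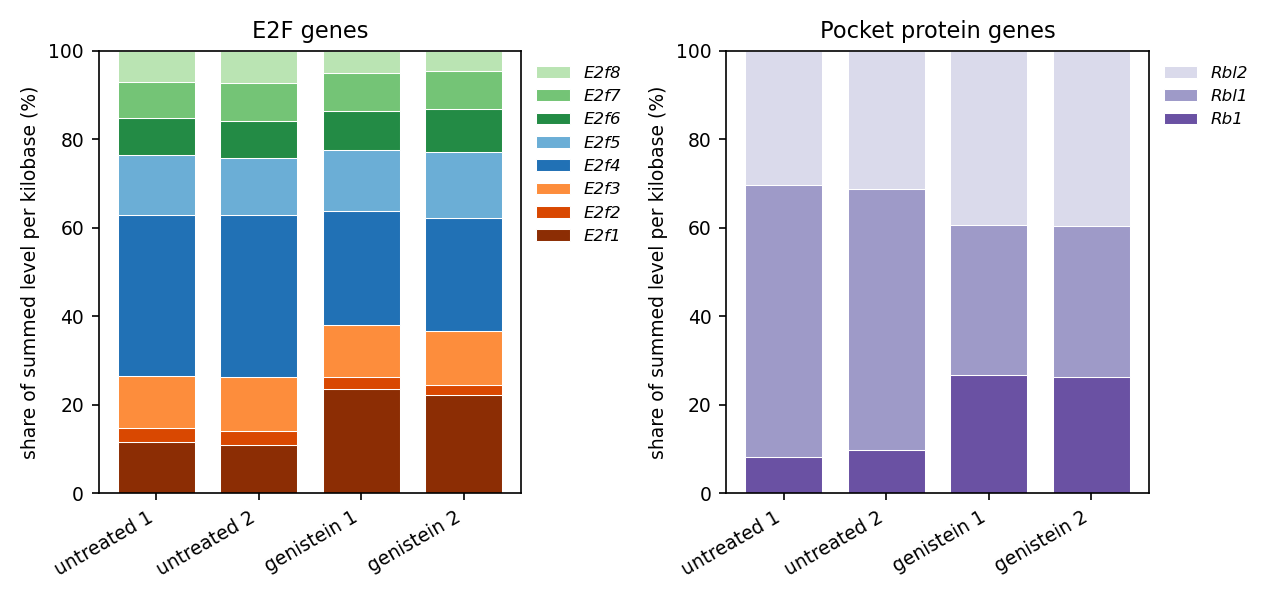
Share (%) of each gene in the summed level per kilobase of the 8 E2F genes (left) and the 3 pocket protein genes (right), with 1 bar per library. The share of E2f1 is at most 11.5% in the untreated and at least 22.2% in the genistein bars, that of E2f4 goes from 36.4% and 36.5% to 25.8% and 25.5%, and that of Rb1 among pocket proteins grows as given in the text.

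The 3 activators did not move together. E2f1 (chr2:154559407-154569892), the activator most tied to apoptosis and to the response to DNA damage, had normalised counts of 632 and 581 in untreated cells (607 ± 36.1, SD, n = 2) and 995 and 911 after genistein (953 ± 59.3, SD, n = 2). It was the 1 E2F with both genistein libraries above the untreated ones, with a log2FC of 0.65 ± 0.07 (SE, adjusted p = 1.6e-07, edgeR). Of all tested genes, 82.0% had a lower log2 fold change.

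E2f2 (chr4:136172394-136196057) had the lowest level per kilobase of the E2Fs and went the other way. Its normalised counts were 283 and 256 without genistein and 178 and 139 with it. The log2FC was -0.76 ± 0.12 (SE, adjusted p = 2.7e-05, edgeR), the least precise of the family. E2f3 (chr13:29906575-29986063), whose long and short isoforms are not separated in gene counts, had 1109 and 1115 against 855 and 875. Its log2FC was -0.36 ± 0.05 (SE, adjusted p = 1.3e-05, edgeR).

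Of the pocket-bound repressors, E2f4 showed the larger change. E2f4 (chr8:105297663-105305370) is the E2F that p107 and p130 mostly carry in resting and early G1 cells. Its normalised counts were 1558 and 1505 without genistein and 849.6 and 815 with it, with each group close together. The log2FC was -0.88 ± 0.05 (SE, adjusted p = 2.1e-10, edgeR), a 1.84-fold fall. E2f5 (chr3:14578641-14606309), its close relative, had 422 and 389 against 329 and 344. The log2FC of E2f5 was -0.27 ± 0.08 (SE, adjusted p = 0.0068, edgeR). That call was lost with DESeq2 (-0.28, adjusted p = 0.074) and without untreated library 1 (-0.21, adjusted p = 0.078, edgeR). The difference stayed in the same direction in both, and it was smaller without untreated library 1. E2f5 shares 26 exon bases with 1810022K09Rik on the opposite strand, which was lower too, at -0.37.

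All 3 RB-independent repressors fell, E2f8 most. E2f7 and E2f8 carry paired DNA-binding domains, need no dimer partner and repress G1/S genes from S phase onward, and E2F7 is a known p53 target in human cells. E2f8 (chr7:48866429-48881596) had 675 and 670.2 normalised counts without genistein and 366 and 319 with it. Its log2FC was -0.97 ± 0.07 (SE, adjusted p = 5.5e-09, edgeR), just short of the fold threshold of 1, which it passed without genistein library 1 (-1.07). Of all tested genes, 7.08% had a lower value. E2f8 shares 610 exon bases with Gm2788 on the opposite strand, which held 5.99 to 12.7 normalised counts in a library, and E2f7 shares 86 with 1700020G17Rik, which held at most 0.94.

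E2f7 (chr10:110745439-110787384) had 1275 and 1282 normalised counts without genistein and 1028 and 1008 with it, a log2FC of -0.33 ± 0.05 (SE, adjusted p = 1.9e-05, edgeR). Per kilobase, the ratio of E2f7 to E2f8 was 1.14 and 1.16 without genistein and 1.70 and 1.91 with it, so the level of E2f8 went down further than that of E2f7. E2f6 (chr12:16810963-16839742), the repressor that works in the Polycomb complex PRC1.6 and keeps germline genes silent, changed least. It had 834 and 808 against 673 and 729 normalised counts, a log2FC of -0.23 ± 0.06 (SE, adjusted p = 0.0030, edgeR).

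Activators and RB-independent repressors were then set against each other on the scale of levels per kilobase, as a description with no test. The activators E2f1, E2f2 and E2f3 summed to 463 and 442 without genistein and 509 and 478 with it. With no length scaling their summed normalised counts were 2024 and 1952, and 2028 and 1924. The groups then overlapped, so the higher activator sum depends on that scaling. The repressors E2f6, E2f7 and E2f8 summed to 413 and 408, and to 300.2 and 299. The ratio of activators to repressors was 1.12 and 1.08 in the untreated (1.10 ± 0.026, SD, n = 2) and 1.70 and 1.60 after genistein (1.65 ± 0.070, SD, n = 2). On the log2 scale that is a difference of 0.58 between groups. With E2f4 and E2f5 counted among the repressors, the ratio was 0.360 and 0.357, and 0.613 and 0.580. The groups overlapped in neither ratio. Within the activator sum, E2f1 went from 43.3% and 41.7% to 61.9% and 60.4%, E2f3 from 44.1% and 46.4% to 30.9% and 33.7%, and E2f2 from 12.5% and 11.9% to 7.16% and 5.94%. The sum of all 8 E2Fs went from 1748 and 1682 to 1341 and 1303 per kilobase, and that of E2f4 and E2f5 from 872 and 832 to 531 and 525.

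The order of levels per kilobase in the untreated libraries was E2f4, Rbl1, E2f5, E2f3, E2f1, E2f6, E2f7, E2f8, E2f2 and Rb1, from a mean of 625 for E2f4 to 43.3 for Rb1. In the genistein libraries it was E2f4, E2f1, Rbl1, E2f5, Rb1, E2f3, E2f6, E2f7, E2f8 and E2f2, from 339 to 32.4. E2f1 moved from place 5 to 2, and Rb1 from 10 to 5. The untreated levels of E2f6 (145 ± 3.29, SD, n = 2) and E2f7 (142 ± 0.58, SD, n = 2) did not differ by more than their spread. Neighbours in either order had no overlapping library values.

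The genes around the family were read from lists. The DNA-binding partner Tfdp1, which pairs with E2f1 to E2f6, had normalised counts of 5595 and 5306 without genistein and 3369 and 3460 with it, a log2FC of -0.68 ± 0.04 (SE, adjusted p = 5.4e-11, edgeR). The second partner, Tfdp2, was at 1460.5 and 1476, and at 1437 and 1431. Its difference of -0.03 did not pass the test (95% interval from -0.13 to 0.06, adjusted p = 0.51, edgeR).

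**Figure D3:**
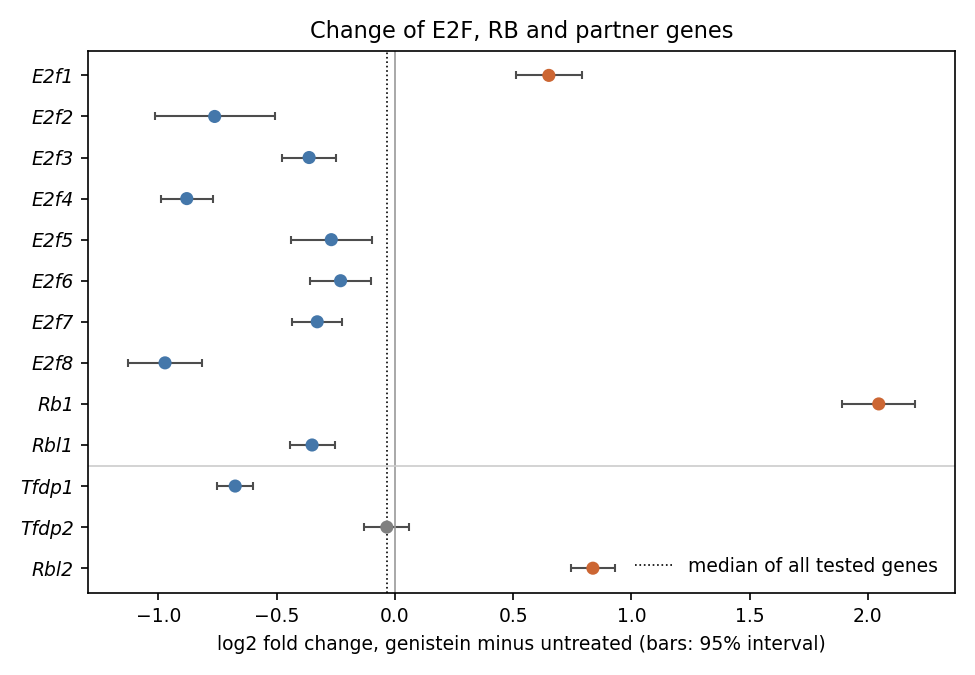
Log2 fold change (genistein minus untreated) of the 10 genes and, under the line, of Tfdp1, Tfdp2 and Rbl2, with 95% intervals from edgeR. Orange and blue points passed an adjusted p of 0.05 in the higher and lower direction, the grey point did not, and the dotted line is the median of all tested genes at -0.03.

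Upstream of RB, 8 of 9 cyclins and kinases were lower and 1 was higher, with a median log2FC of -0.70. Over all entries 36.0% were lower and 36.2% higher, and the median of all tested genes was -0.03. The E cyclins Ccne1 and Ccne2, partners of Cdk2 and also known E2F targets, fell furthest. Ccne1 had 944 and 952 normalised counts without genistein and 320 and 299 with it. The log2FC values of Ccne1 and Ccne2 were -1.61 and -1.41 (adjusted p = 2.1e-12 and 3.3e-11, edgeR), followed by -0.91 for Cdc25a, the phosphatase that activates Cdk2. The D cyclins, which start RB phosphorylation, split. Ccnd1 was at -0.70 and Ccnd3 at -0.28, and Ccnd2 was higher at 0.13 (adjusted p = 0.014, edgeR), a call lost without untreated library 1 (0.10, adjusted p = 0.18, edgeR) and with a replicate block (0.13, adjusted p = 0.052, edgeR). Cdk4, Cdk2 and Cdk6 were at -0.75, -0.62 and -0.22.

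Of the 7 CDK inhibitors, 6 were tested. At an adjusted p under 0.05 (edgeR), 4 were lower and 1 was higher. Over all entries 36.0% were lower and 36.2% higher. The share called was close to the 72.2% of all entries, which is no result about this list. The p21 gene Cdkn1a had 370 and 360.0 normalised counts without genistein and 2597 and 2399.9 with it, and its log2FC of 2.78 (adjusted p = 9.1e-16, edgeR) was the highest value among the listed genes. Cdkn2d fell by 0.50 on the log2 scale. Cdkn2c, Cdkn2a and Cdkn1b, at -0.15, -0.14 and -0.10, also passed, but the number lower went from 4 to 1 with library totals, with scaling on genes alone or with DESeq2, and to 2 without untreated library 1, untreated library 2 or genistein library 1. Cdkn2b, at -0.03, did not pass (adjusted p = 0.61, edgeR).

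The known G1/S targets of E2F mostly went down. Of the 30 genes, 29 were lower and 1 was not, against 36.0% of all entries lower, with a median log2FC of -0.50 beside -0.03 for all tested genes. With every library kept, 27 to 29 were called lower under the other settings. Ung, a uracil glycosylase, had 928 and 883 normalised counts without genistein and 198 and 193 with it, a log2FC of -2.21 (adjusted p = 1.8e-13, edgeR). The thymidine kinase Tk1 and the chromatin assembly subunit Chaf1b were at -0.91 and -0.85. The 8 lower members of the family moved the same way as this list, and Rb1 and E2f1 the opposite way.

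The G2/M genes, known targets of DREAM (p107 or p130 with E2f4 and MuvB), were mixed. Of 24, 12 were lower, 5 higher and 7 did not pass, with a median of -0.11 beside -0.03 for all tested genes. With every library kept, 11 to 14 were called lower and 4 to 7 higher under the other settings. The share called was close to the 72.2% of all tested entries, and a share near that background is no result about these genes. Ccna2, Aurkb and Plk1 were at -0.79, -0.70 and -0.56, while Kif20a, Cenpf and Nek2 were at 0.32, 0.22 and 0.22. Of the 7 genes of MuvB and its partners, 4 were lower, 1 was higher and 2 did not pass, again close to the 72.2% of all entries called. Mybl2, the B-Myb factor and an E2F target, went from 2327 and 2329 to 972 and 910.0 normalised counts, at -1.31 (adjusted p = 5.2e-13, edgeR). The core subunit Lin52 was higher at 0.48, and Lin9 and Rbbp4 were lower at -0.29 and -0.17. Foxm1 was lower at -0.11 (adjusted p = 0.019, edgeR), a call lost under 5 of the 10 alternatives, with adjusted p from 0.052 to 0.39 (edgeR, or DESeq2).

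**Figure D4:**
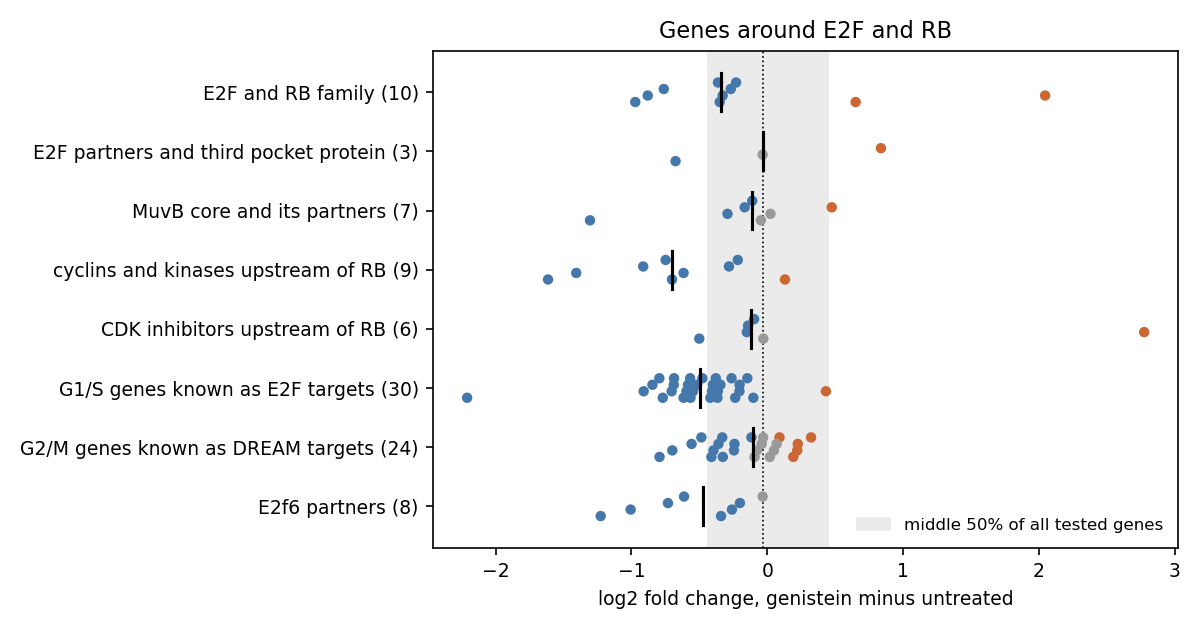
Log2 fold changes (genistein minus untreated) of the tested genes in each list, with the number tested in brackets, 1 point per gene and a black bar at the list's median. Orange and blue points passed an adjusted p of 0.05 and grey points did not, the dotted line is the median of all tested genes, and the grey band from -0.43 to 0.44 holds the middle 50% of them. Of the 30 G1/S genes 29 lie on the lower side, and the G2/M genes lie on both sides.

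Around E2f6, 7 of 8 PRC1.6 subunits were lower, against 36.0% of all entries, and 1 did not pass. Their median log2FC was -0.48, beside -0.03 for all tested genes. Pcgf6, the subunit that defines the complex, went from 721 and 698 to 308 and 299 normalised counts, at -1.23 (adjusted p = 1.2e-10, edgeR). Wdr5, Cbx3 and L3mbtl2 were at -1.01, -0.73 and -0.61. Max, Ring1 and Rnf2 changed less, at -0.34, -0.26 and -0.20, and Mga, at -0.03, was the 1 that did not pass. The call of Ring1 was lost with DESeq2 (-0.27, adjusted p = 0.069), which left 6 subunits lower. Of 4 germline genes known as E2f6 targets, Stag3 was the 1 tested. It had 44.0 and 44.5 normalised counts without genistein and 72.2 and 62.8 with it, at 0.61 (adjusted p = 0.0085, edgeR), a call lost with DESeq2 (0.60, adjusted p = 0.13) and without genistein library 1 (0.51, adjusted p = 0.096, edgeR). Smc1b, Tuba3a and Slc25a31 held at most 1.06 normalised counts in a library, so a change was not detectable at this depth.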

How the data were processed

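Per the labels, total RNA libraries were made with a stranded kit. The authors trimmed paired reads (Trim Galore), aligned them to mm10 (GRCm38) with STAR, keeping multimapping reads, and counted genes (GENCODE) and repeats with TEtranscripts. The deposited values are raw counts. A row that named nothing (0.00208% to 0.00314% of counts) was left out.

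Genes and repeats were fitted together with edgeR 4.0.16 in R 4.3.3 (filterByExpr by group, TMM, quasi-likelihood test, Benjamini-Hochberg over 16240 genes and 1118 repeats). The standard error is the size of the log2 fold change over the square root of F. Libraries of a group were distinct (chi-square per degree of freedom 5.70 and 13.1). An exact permutation test of 2 against 2 cannot go below p = 0.333. Alternatives were RLE factors, library totals, factors from genes alone, no filter, DESeq2 1.42.0, a block on replicate number, and each library left out in turn. The test was checked on simulated counts.

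Exon lengths and positions came from GENCODE M21 on GRCm38, and promoter windows from RefSeq. The study counted genes with an earlier GENCODE release, so levels per kilobase divide those counts by M21 exon lengths. Shared exon bases are from M21 too. A planned protein comparison was not run. Membership was set by symbol and not by a measured value, but the family and the gene lists were chosen with earlier results of these data known. All members were named, and of each list of 10 or more up to 3 called genes with the highest and 3 with the lowest log2 fold change, shorter lists also in full. The values of 1 gene of the G1/S list are not reported here. Overlapping genes were added afterwards.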

Additional observations from a re-analysis of the deposited data

How the results depend on the processing

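The members were 2 higher and 8 lower, and 2 higher and 7 to 8 lower under the 10 alternatives. Of 120 values followed for 12 genes (the members, Rbl2 and Tfdp1), 118 kept their direction and side of the threshold, and the other 2 were those of E2f5. Rb1 lay from 1.93 to 2.16, and E2f1 from 0.59 to 0.72. E2f8 reached -1.07 without genistein library 1, past a log2FC of -1, and lay above -1 in the other 9. The activator to repressor difference, 0.58, was 0.42 with no length scaling and 0.73 against E2f4 to E2f8. It lay from 0.54 to 0.62 with a library left out, and library totals cannot change a ratio within a library. Among the CDK inhibitors the number lower was 1 with library totals, 1 with factors from genes alone and 1 with DESeq2, and 2 to 4 with a library left out. The higher cyclin (1) became 0 with the replicate block and 0 to 1 with a library left out, and the higher germline gene (1) became 0 with DESeq2 and 0 to 1 with a library left out. The causes were not tested. The labels share replicate numbers between groups. Deviations from the group mean had a correlation of -0.03 between untreated library 1 and genistein library 1. Those of the libraries numbered 2 are their mirror image, so they add no further pair. The replicate block left the members at 2 higher and 8 lower. Library totals moved the median of all genes from -0.03 to 0.04.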

Other observations

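Within an intron of Rbl1, on the opposite strand, lies the processed pseudogene Gm14277. It had 516 and 481 normalised counts without genistein and 194 and 192 with it, a log2FC of -1.37 ± 0.09 (SE, adjusted p = 4.7e-10, edgeR), beside -0.35 for Rbl1. The annotation gives no shared exon bases between them. Reads of a processed pseudogene can also come from its parent gene, so its share is uncertain. The gene was named after its values were seen.

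Among the markers of other cell types, the keratin genes Krt8 and Krt18, which are markers of simple epithelia, were lower, at log2FC values of -1.74 and -2.76. Cd68, a lysosomal protein gene used as a macrophage marker, was higher, from 83.9 and 65.6 to 211 and 213 normalised counts. The defining blood markers Ptprc and Adgre1 held at most 1.01 normalised counts in any library.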
